A study of Mus musculus with 6 samples.

Results

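The IL-1 and IL-18 axis was described in brown adipose tissue (BAT) through 10 genes, which were taken from the 35976 genes of the count table by their symbols. They encode the ligands IL-1α (Il1a), IL-1β (Il1b) and IL-18 (Il18), their inhibitors (Il1rn and Il18bp), and the inflammasome proteins Nlrp3, Pycard, Casp1, Casp4 and Gsdmd. BAT RNA was sequenced from 3 mice lacking soluble ST2 (sST2-KO) and 3 wild-type (WT) littermates on the C57BL/6J background, and the comparison of these groups asks what the loss of sST2 does to BAT in the cold. All 6 mice were males of 10 weeks whose BAT had been surgically denervated, and all were kept at 10 °C for 8 h before the tissue was taken, so the controls carried the denervation and the cold as well. The sST2-KO mice are homozygous, in every tissue, for a Cas9-made deletion of the Il1rl1 intron that separates exons 8 and 9. Il1rl1 is the gene that encodes both the secreted decoy sST2 and the membrane receptor ST2L for IL-33. Whole BAT was used, so a larger number of cells of a type and more RNA per cell cannot be told apart.

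IL-1α and IL-1β activate the same receptor, and the antagonist encoded by Il1rn occupies that receptor without starting a signal. IL-18 drives T and NK cells to make interferon-γ, and IL-18 binding protein captures it in solution. IL-1β and IL-18 are made as precursors that caspase-1 cleaves on an inflammasome, in which a sensor such as NLRP3 recruits caspase-1 through the adaptor ASC, the product of Pycard. Caspase-11, the product of mouse Casp4, responds to bacterial lipopolysaccharide in the cytosol, and either caspase can cleave gasdermin D to open pores in the cell membrane. Macrophages and neutrophils are known sources of these proteins, and IL-1β is known to lower the expression of thermogenic genes in brown adipocytes. Counts of RNA do not show cleavage, secretion or pore formation.

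In BAT of sST2-KO mice, 7 of the 9 genes that could be tested were higher than in WT mice and 0 were lower. They were Il1b, Il1rn, Il18, Nlrp3, Pycard, Casp1 and Casp4, and their fold changes ran from 3.90 for Casp4 to 32.0 for Il1b. Gsdmd and Il18bp did not pass the test, and Il1a had too few counts to be tested. Of all 14542 genes tested, 10.5% were higher at an adjusted p under 0.05 in the quasi-likelihood test of edgeR after Benjamini-Hochberg adjustment. All 7 genes also changed more than 2-fold, as 9.04% of all genes did, and 9.1% of all genes were lower at an adjusted p under 0.05. In 8 of the 9 genes every sST2-KO library lay above every WT library, which held for 21.8% of all genes tested. The median log2 fold change was 2.57 over the 9 genes and 0.034 over all genes tested. At an unadjusted p under 0.05 by the same test, 8 of the 9 were higher and 0 were lower. Shares of all genes were not computed at an unadjusted p, here or below. DESeq2 called 9 of the 10 higher and 0 lower at an adjusted p under 0.05, with 11.4% of all genes higher.

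The libraries held 8159442 to 12874809 counts. Levels are normalized counts scaled to a common library size (CPM) after TMM scaling, and the values of a group are given in the order of replicates 1 to 3. The targeted gene Il1rl1 was counted 19, 19 and 6 times among WT mice and 55, 69 and 142 times among sST2-KO mice, and since reads of sST2 and ST2L are counted together these counts do not check the genotype. The labels do not say more of a replicate than its number, and each was taken as 1 mouse. sST2-KO replicate 3 stood apart from the other libraries, with 6.8% of its counts on mitochondrial genes where the others had 11.8% to 16.6%, and with the highest sum over 12 macrophage markers. WT replicate 2 had 7750 CPM summed over 15 liver markers, where the others had 75.9 to 462 CPM. The sum over 15 skeletal muscle markers was 1450, 28.2 and 9.74 CPM among WT mice and 7590, 4040 and 17600 CPM among sST2-KO mice, so muscle RNA was highest in all 3 sST2-KO libraries. BAT markers were present in all libraries, and 9 of the 10 brown adipocyte markers were lower in sST2-KO mice, where their sum ran from 358 to 1940 CPM against 8540 to 16300 CPM in WT mice.

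The 3 genes with the largest tested rises, Il1b, Il1rn and Nlrp3, are shown by the 250 bases before their transcription start on the mouse genome GRCm39, to show which of the searched motifs stand before genes that rose together. The sequences below run 5′ to 3′ on the strand of the gene, and capitals mark the motifs that were searched on both strands: NF-kB (GGGA, any 4 bases, CC), AP-1 (TGANTCA), C/EBP (TTNNGNAA), PU.1 (GAGGAA) and the interferon-stimulated response element (GAAA, any 2 bases, GAAA).
Il1b, chr2:129213060-129213309, minus strand: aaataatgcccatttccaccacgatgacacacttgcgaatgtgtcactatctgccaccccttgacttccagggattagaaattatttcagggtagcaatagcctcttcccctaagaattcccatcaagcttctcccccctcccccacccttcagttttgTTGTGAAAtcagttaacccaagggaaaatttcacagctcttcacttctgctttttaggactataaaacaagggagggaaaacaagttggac
Il1rn, chr2:24226615-24226864, plus strand: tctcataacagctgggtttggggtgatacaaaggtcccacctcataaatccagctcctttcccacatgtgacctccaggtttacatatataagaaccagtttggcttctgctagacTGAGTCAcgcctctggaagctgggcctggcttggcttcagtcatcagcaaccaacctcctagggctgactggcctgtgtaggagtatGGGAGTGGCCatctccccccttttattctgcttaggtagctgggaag
Nlrp3, chr11:59433262-59433511, plus strand: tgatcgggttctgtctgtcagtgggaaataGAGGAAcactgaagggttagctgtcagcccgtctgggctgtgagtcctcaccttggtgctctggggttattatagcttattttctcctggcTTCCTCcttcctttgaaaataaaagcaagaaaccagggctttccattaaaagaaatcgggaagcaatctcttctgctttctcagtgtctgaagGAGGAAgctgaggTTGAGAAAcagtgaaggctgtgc
The Il1b window held a C/EBP match 91 to 84 bases before the start and no other match, and some of its bases lie in an exon of Il1bos, a noncoding gene on the opposite strand. The Il1rn window held an AP-1 match 134 to 128 bases and an NF-kB match 47 to 38 bases before the start. The Nlrp3 window held 3 PU.1 matches and 1 C/EBP match, and no matches of different motifs overlapped in these windows. Over the windows of all 10 genes, the C/EBP motif was found in 8, the PU.1 motif in 5, the NF-kB motif in 2 (Il1rn and Casp4), the AP-1 motif in 1 and the interferon motif in 0. Among the windows of 21770 protein-coding genes the shares with a match were 36.9%, 22.9%, 18.2%, 6.2% and 3.3%, in the same order. The Il18bp window, which held a C/EBP match, lay wholly in exons of its own gene. A match is a description of letters and does not show binding, and the absence of these letters from a window says nothing of a factor.

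**Figure D1:**
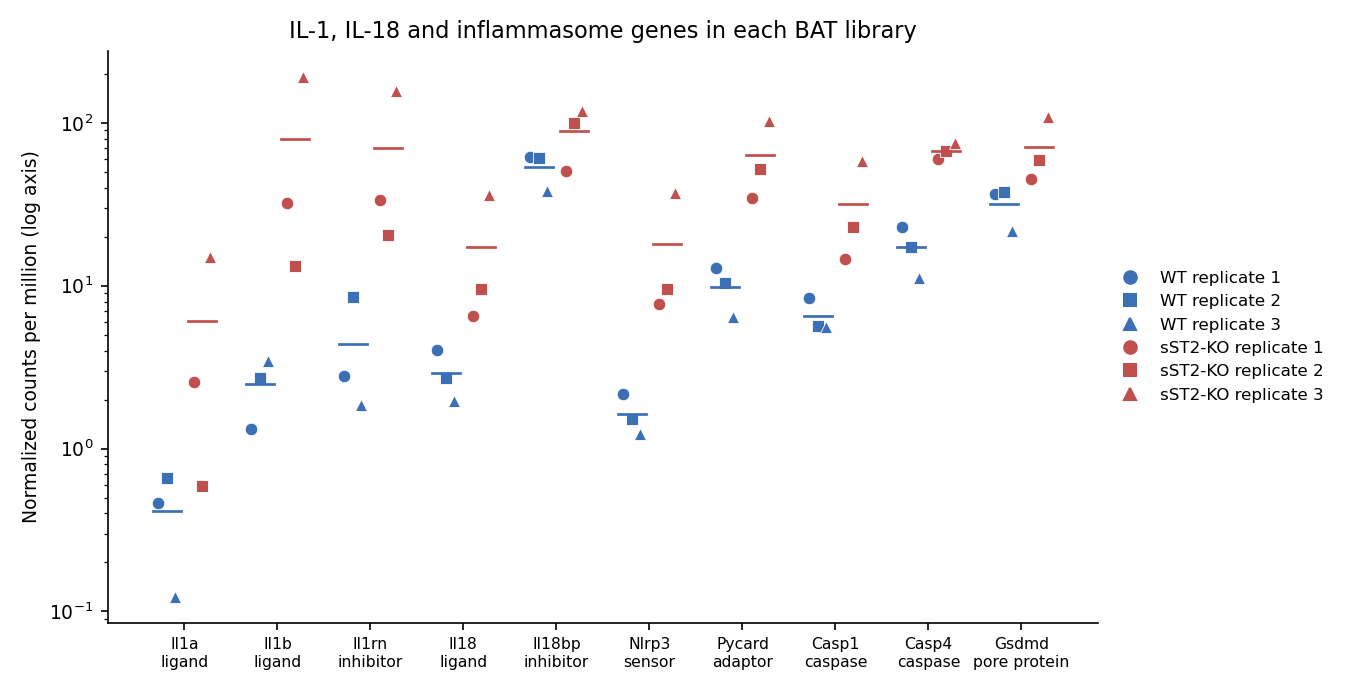
Normalized counts (CPM) of the 10 genes (log axis) in each BAT library, with WT in blue, sST2-KO in red, a symbol for each replicate and a line at the group mean. sST2-KO replicate 3 is the highest sST2-KO library in all 10 genes, and the groups overlap in Il1a and Il18bp.

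Among the ligands Il1b had the largest rise. Il1b, on chromosome 2 (129206490 to 129213059, minus strand), encodes IL-1β, and its level was 1.31, 2.73 and 3.45 CPM among WT mice and 32.3, 13.2 and 192 CPM among sST2-KO mice. Every sST2-KO library was at least 3.82 times the highest WT library, but the sST2-KO libraries differed from each other by up to 14.6-fold. The means were 2.50 ± 1.09 CPM (SD, n = 3) and 79.3 ± 98.4 CPM (SD, n = 3), and the log2 fold change was 5.00 (standard error, SE, 1.06, adjusted p = 0.0213 by edgeR's quasi-likelihood test). Without sST2-KO replicate 3 it was 3.19 and still passed (adjusted p = 0.021 in edgeR), while without WT replicate 1, 2 or 3 the adjusted p was 0.0615, 0.0714 or 0.084.

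Il1a lies 54.4 kb from Il1b on the same strand (129140291 to 129152098) and encodes IL-1α, which is active without cleavage by caspase-1. It had 5, 7 and 1 counts among WT mice and 37, 5 and 152 counts among sST2-KO mice. The second sST2-KO library was within the WT range, so the groups overlapped, at 0.416 ± 0.272 CPM (SD, n = 3) and 6.06 ± 7.81 CPM (SD, n = 3). The expression filter left Il1a out of the test. Without the filter it was 3.77 on the log2 scale (SE 1.02, adjusted p = 0.0368 in edgeR), and DESeq2 gave 3.83 (adjusted p = 0.00262). The noncoding gene Gm14023 on the opposite strand covers 13.68% of the exon bases of Il1a, and its own counts were 4, 1 and 3 in WT mice and 19, 5 and 29 in sST2-KO mice. The sources used here do not say whether the counting used strand, so reads of the 2 genes may be mixed.

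Il18, on chromosome 9 (50466081 to 50493633, plus strand), had 4.01, 2.73 and 1.97 CPM among WT mice and 6.55, 9.49 and 36.2 CPM among sST2-KO mice. The groups did not overlap, but the lowest sST2-KO library was only 1.63 times the highest WT library. The log2 fold change was 2.57 (SE 0.68, adjusted p = 0.0387 by edgeR's quasi-likelihood test). Of the 7 calls this one was lost in the most leave-one-out fits, without WT replicate 1, 2 or 3 and also without sST2-KO replicate 3, where the log2 fold change was 1.44 (adjusted p = 0.0648 in edgeR).

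Of the inhibitors, Il1rn passed the test and Il18bp did not, and the difference between their changes was not tested. Il1rn, on chromosome 2 (24226865 to 24241506, plus strand), encodes the IL-1 receptor antagonist, with 2.80, 8.48 and 1.85 CPM among WT mice and 33.4, 20.6 and 156 CPM among sST2-KO mice. The groups did not overlap, and the log2 fold change was 3.98 (SE 0.92, adjusted p = 0.0266 by edgeR's quasi-likelihood test), or 15.8-fold. Without sST2-KO replicate 3 it was 2.60 (adjusted p = 0.0404 in edgeR), and the call was lost without WT replicate 1, 2 or 3 (adjusted p = 0.0739, 0.0502 and 0.105). Il18bp, on chromosome 7 (101638490 to 101668206, minus strand), encodes IL-18 binding protein, with 61.6, 60.6 and 38.0 CPM among WT mice and 50.5, 100 and 118 CPM among sST2-KO mice. The first sST2-KO library was below 2 WT libraries, and the log2 fold change of 0.74 did not pass the test (SE 0.34, adjusted p = 0.161 in edgeR). Of the alternatives it passed only without that library (log2 fold change 1.03, adjusted p = 0.0458). Exons of Numa1 on the opposite strand cover 8.98% of the exon bases of Il18bp.

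The sensor and the adaptor of the inflammasome rose together. Nlrp3, on chromosome 11 (59432394 to 59457782, plus strand), had 2.15, 1.51 and 1.23 CPM among WT mice and 7.67, 9.61 and 37.1 CPM among sST2-KO mice. The lowest sST2-KO library was 3.57 times the highest WT library. The log2 fold change was 3.45 (SE 0.68, adjusted p = 0.0185 by edgeR's quasi-likelihood test), and it was 2.38 without sST2-KO replicate 3 (adjusted p = 0.021 in edgeR). Pycard, on chromosome 7 (127588558 to 127593039, minus strand), had 12.9, 10.4 and 6.41 CPM among WT mice and 34.4, 52.1 and 103 CPM among sST2-KO mice. The groups were apart by 2.67-fold at their nearest, and the log2 fold change was 2.67 (SE 0.45, adjusted p = 0.015 in edgeR). Of the leave-one-out fits, Nlrp3 lost its call without WT replicate 2 or 3 (adjusted p = 0.0636 and 0.0829) and Pycard only without WT replicate 3 (adjusted p = 0.0653). Pycard shares 11.45% of its exon bases with Gm45205 on the opposite strand.

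The caspase genes Casp1 (5298508 to 5307290) and Casp4 (5308828 to 5336783) are neighbors on the plus strand of chromosome 9, 1.5 kb apart. Casp1, which encodes the protease of IL-1β and IL-18 precursors, had 8.40, 5.65 and 5.55 CPM among WT mice and 14.5, 22.9 and 58.2 CPM among sST2-KO mice. Casp4 had 23.0, 17.4 and 11.2 CPM among WT mice and 59.8, 67.5 and 74.9 CPM among sST2-KO mice. Both were without overlap, but the sST2-KO libraries differed from each other by 4.01-fold in Casp1 and by 1.25-fold in Casp4, the smallest spread of the 10 genes. The log2 fold change was 2.28 for Casp1 (SE 0.52, adjusted p = 0.026 by edgeR's quasi-likelihood test) and 1.96 for Casp4 (SE 0.27, adjusted p = 0.0133). Without sST2-KO replicate 3 these values were 1.51 and 1.87, both past the test in edgeR (adjusted p = 0.0376 and 0.0217). Casp1 lost its call without WT replicate 1, 2 or 3 (adjusted p = 0.0505, 0.0833 and 0.107), and Casp4 only without WT replicate 3 (adjusted p = 0.0517).

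Gsdmd, the gasdermin D gene on chromosome 15 (75733974 to 75739257, plus strand), had 36.6, 37.4 and 21.8 CPM among WT mice and 45.4, 59.1 and 109 CPM among sST2-KO mice. The groups did not overlap, yet the nearest libraries were only 1.21-fold apart. The log2 fold change was 1.15 (SE 0.37, adjusted p = 0.0627 by edgeR's quasi-likelihood test), which did not pass. It passed with DESeq2 (adjusted p = 0.0236), with scaling by total counts (0.0449), with no filter (0.0463) and without sST2-KO replicate 1 (0.042). Gm62577 on the opposite strand shares 9.42% of the exon bases of Gsdmd.

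**Figure D2:**
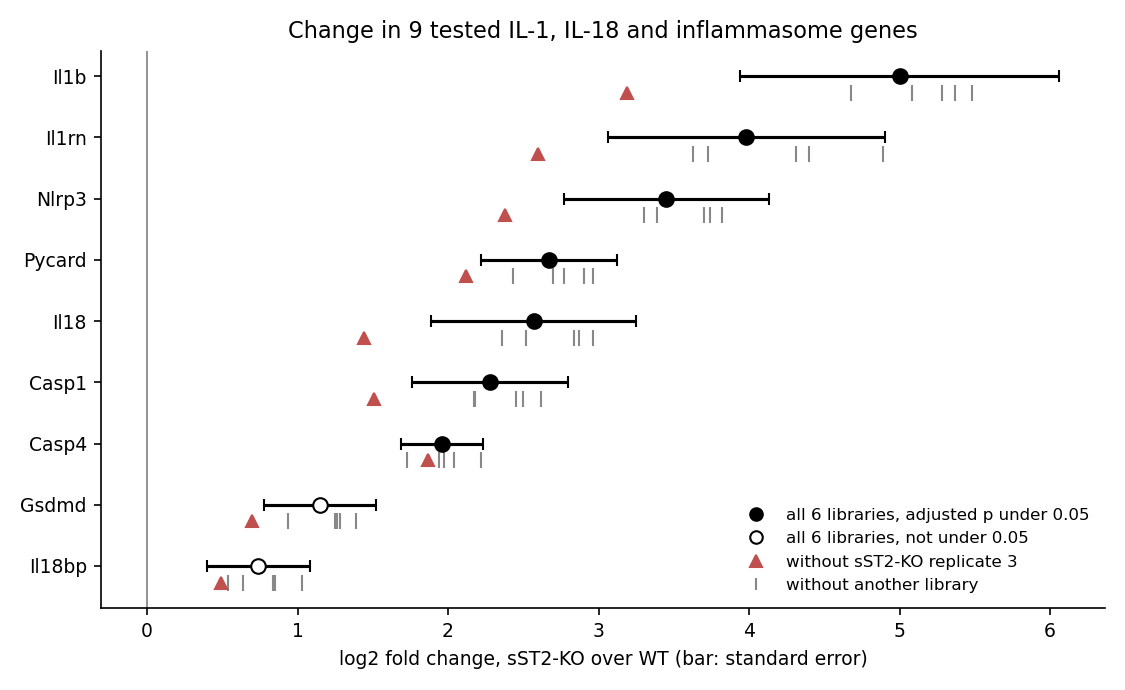
Log2 fold change of the 9 tested genes in sST2-KO over WT mice, with the SE as a bar, filled where the adjusted p is under 0.05. Small marks below each gene give the value with 1 library left out, and the triangle is without sST2-KO replicate 3. All values lie above 0, and the triangle moves Il1b from 5.00 to 3.19 and Casp4 from 1.96 to 1.87.

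WT replicate 3 had the lowest WT level in 9 of the 10 genes, all but Il1b. Without it edgeR's quasi-likelihood test called 0 of 10 genes higher at an adjusted p under 0.05, as it did 0.239% of all genes in that fit. At an unadjusted p under 0.05 by the same test 8 of the 10 were higher, and the share of all genes at that threshold was not computed. The log2 fold changes stayed positive in each leave-one-out fit, and without WT replicate 3 those of the 7 genes were 5.28 for Il1b, 3.63 for Il1rn, 3.30 for Nlrp3, 2.43 for Pycard, 2.36 for Il18, 2.17 for Casp1 and 1.73 for Casp4, each within 1 SE of its value with all libraries. Without WT replicate 1, 3 genes were called (Nlrp3, Pycard and Casp4, with 8.04% of all genes), and without WT replicate 2, 2 genes were called (Pycard and Casp4, with 2.65%). Without sST2-KO replicate 3, 6 of 9 were called, with 4.86% of all genes. Without sST2-KO replicate 1, 9 of 9 were called, with 10.2% of all genes, and without sST2-KO replicate 2, 8 of 10, with 7.12%.

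The sST2-KO libraries ordered the genes in 2 ways. In Il1a, Il1b and Il1rn, the IL-1 receptor ligands and their antagonist, replicate 1 exceeded replicate 2, by 4.35-fold, 2.46-fold and 1.62-fold. In the other 7 genes replicate 2 exceeded replicate 1, with replicate 1 at 0.504 times the level of replicate 2 for Il18bp and at 0.886 times for Casp4. Replicate 3 was the highest in all 10. Some marker sums fell into these 2 orders and others into neither. Replicate 1 exceeded replicate 2, with replicate 3 highest, in the sums of neutrophil markers (586, 170 and 803 CPM), macrophage markers (1790, 1710 and 7020 CPM) and skeletal muscle markers, as in the first 3 genes. In the macrophage sum replicates 1 and 2 were nearly equal. The T and NK cell marker sum (204, 230 and 246 CPM) had the order of the other 7 genes. So did the mast cell sum (102, 144 and 250 CPM) and the fibroblast sum (1170, 2310 and 10200 CPM). The dendritic cell (124, 201 and 150 CPM) and endothelial sums (1670, 2360 and 1280 CPM) had neither order. The brown adipocyte, adipocyte and liver sums had neither order as well. With 3 libraries these orders are a description, and the part of cell numbers in them was not tested.

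Levels of different genes were compared per kilobase of exon. In WT mice Il18bp and Gsdmd had the highest levels, with group means of 10.7 and 10.6 CPM per kb, and they did not differ beyond their spread. Casp4, Pycard and Casp1 followed at 3.28, 2.33 and 2.08 CPM per kb. Il18, Il1b and Il1rn lay at 0.966, 0.960 and 0.791 CPM per kb, Nlrp3 at 0.401 and Il1a at 0.119. In sST2-KO mice the mean of Il1b was the highest, at 30.5 CPM per kb, before Gsdmd (23.7), Il18bp (18.0), Pycard (14.9), Casp4 (12.8), Il1rn (12.7) and Casp1 (10.2). The order of the means hid the libraries: the rank of Il1b among the 10 genes was 2, 6 and 1 in the sST2-KO libraries and 9, 7 and 6 in the WT libraries. Il18, Nlrp3 and Il1a had the lowest means in sST2-KO mice (5.79, 4.47 and 1.74 CPM per kb), and Il1a was the lowest gene in all 6 libraries.

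The ratio of inhibitor to ligand within a library does not depend on scaling. There were 15.2, 21.8 and 18.7 Il18bp counts for each Il18 count among WT mice and 7.67, 10.5 and 3.25 among sST2-KO mice. All sST2-KO libraries were below all WT libraries, and the mean log2 ratio was 1.52 lower, at 2.68 ± 0.87 (SD, n = 3) against 4.20 ± 0.26 (SD, n = 3). The exact two-sided permutation test gave p = 0.1, the smallest p that 3 against 3 allows, and 0.171 after adjustment over the 12 ratios computed. The Il1rn counts for each Il1b count were 2.10, 3.07 and 0.544 in WT mice and 1.03, 1.57 and 0.813 in sST2-KO mice. These overlapped, with a difference in the log2 ratio of -0.47 (exact permutation p = 0.6, adjusted p = 0.655), which became 0.03 without WT replicate 2.

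**Figure D3:**
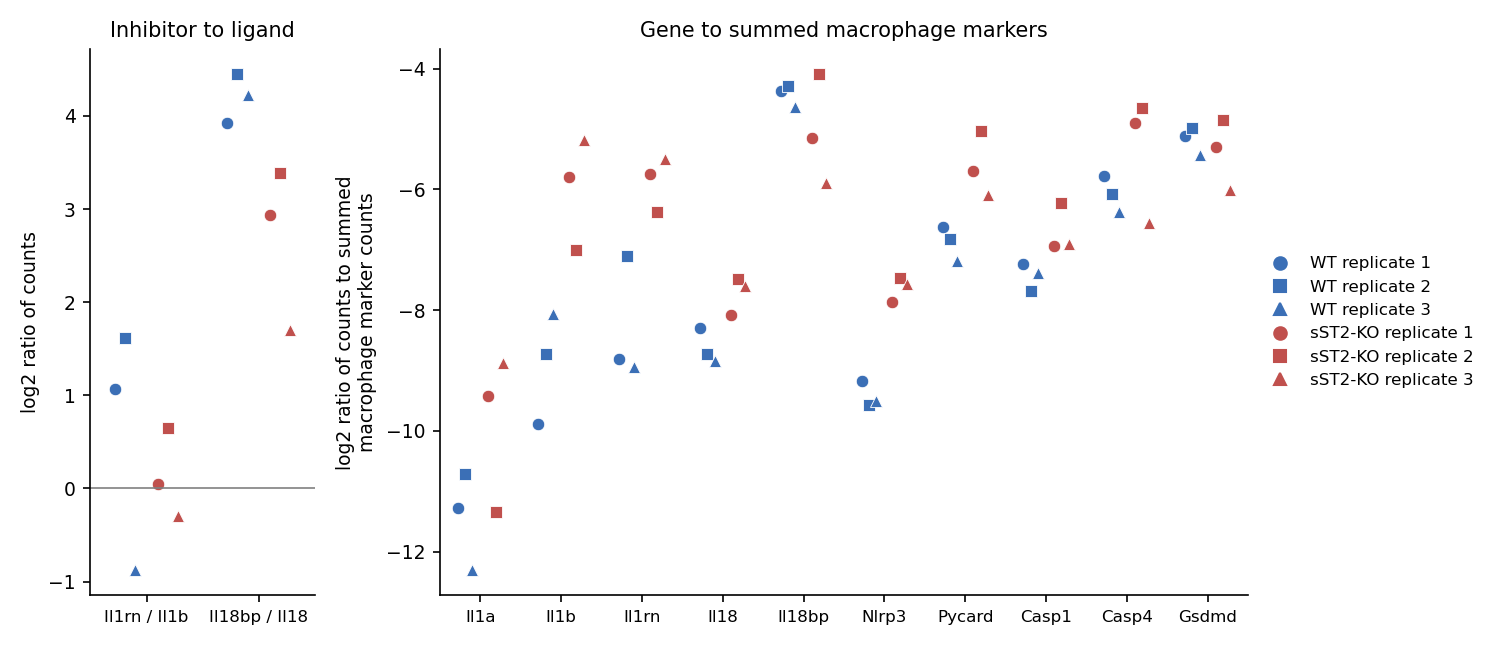
Log2 ratios of counts within each library, for inhibitor to ligand on the left and for each gene to the summed counts of 12 macrophage markers on the right, with WT in blue and sST2-KO in red. The Il18bp to Il18 ratio is lower in all sST2-KO libraries, and Il1b, Il1rn, Il18, Nlrp3, Pycard and Casp1 are above WT in each sST2-KO library relative to the macrophage markers.

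Some markers of immune cells were higher as well, and others did not pass the test. Beside the counts that follow, 10.5% of all genes tested were higher and 9.1% lower at an adjusted p under 0.05. Every sST2-KO library lay above every WT library in 21.8% of all genes tested. Of 12 macrophage markers 3 passed the test as higher (Itgam, Fcgr1 and Lyz2) and 0 as lower (median log2 fold change 1.26), and the sum was 942 to 1270 CPM in WT libraries and 1710 to 7020 CPM in sST2-KO libraries. None of the 12 was at 0 in a library. The complement genes C1qa, C1qb and C1qc, which mark resident macrophages, did not pass the test, with log2 fold changes of 0.80, 1.00 and 0.97. Of 13 neutrophil markers 5 were higher (median 2.60), and the sum was 34.9 to 166 CPM in WT libraries and 170 to 803 CPM in sST2-KO libraries, with Ly6g at 0 in 1 WT library. Of 11 T and NK cell markers 9 were higher (median 3.00), and their sum was 27.2 to 31.2 CPM in WT libraries and 204 to 246 CPM in sST2-KO libraries. Of 7 tested dendritic cell markers 3 were higher (median 0.82), and 0 of 6 tested mast cell markers were (median 2.51). Zbtb46 was the 1 tested dendritic cell marker with a negative change (log2 fold change -0.97, adjusted p = 0.099 in edgeR), without overlap. Cd209a was not tested, with 15, 10 and 10 counts among WT mice and 0, 5 and 3 among sST2-KO mice. All 15 skeletal muscle markers had every sST2-KO library above every WT library, of which 2 passed the test (median 4.19). These 2, Myoz1 and Pvalb, had 70, 5 and 0 and 89, 3 and 0 counts among WT mice. They passed the expression filter with the help of the sST2-KO libraries. The called immune markers Mpo, Cxcr2, Xcr1 and Cd3g also lay under the filter's cutoff of 0.97 CPM in at least 1 WT library. Of the other lists, 3 of 5 tested liver markers and 2 of 10 adipocyte markers were lower, 1 of 8 endothelial markers was higher and 1 lower, and 0 of 8 fibroblast markers passed. The part of these cells in the rise of the inflammasome genes was not tested.

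Relative to the summed macrophage marker counts of the same library, 6 genes were above WT in every sST2-KO library. The share of all genes above WT in this ratio was not computed, so the count of 6 is only a description. The mean log2 ratio was higher by 2.90 for Il1b, 2.42 for Il1rn, 1.79 for Nlrp3, 1.27 for Pycard, 0.91 for Il18 and 0.75 for Casp1. Each gave the smallest possible exact permutation p of 0.1 (0.171 adjusted over the 12 ratios), so none could pass. The ratio for Nlrp3 varied little within groups, at -9.42 ± 0.21 (SD, n = 3) in WT mice and -7.63 ± 0.21 (SD, n = 3) in sST2-KO mice. For Il1a, Casp4, Il18bp and Gsdmd the groups overlapped, with differences of 1.55, 0.71, -0.62 and -0.21 (exact permutation p = 0.3, 0.4, 0.4 and 0.7). Casp4, whose own level was almost equal in the 3 sST2-KO libraries, had the lowest ratio of all 6 libraries in sST2-KO replicate 3, at -6.55, where the marker sum was highest.

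Among 6 other ligands of the IL-1 family, 0 passed edgeR's test, 1 of 6 had enough counts for it, and 0 passed at an unadjusted p under 0.05. The tested gene was Il33, the ligand that sST2 captures, with 14.6, 13.7 and 9.0 CPM among WT mice and 8.36, 26.2 and 60.2 CPM among sST2-KO mice. The groups overlapped, and the change was 1.34 on the log2 scale (adjusted p = 0.166 in edgeR). Il1f9, the gene of IL-36γ, had 2, 5 and 4 counts in WT mice and 61, 3 and 180 counts in sST2-KO mice, so replicate 2 was at the WT level, as it was for Il1a. It was below the expression filter, and it was called higher by DESeq2 and by edgeR with no filter. Il33, Il1f9 and Il1f6 are named after their values were seen. Il1f6, the gene of IL-36α, had 17 counts in sST2-KO replicate 3 and 0 elsewhere, and Il1f5, Il1f8 and Il1f10 had 0 counts in all libraries, where up to 3 counts would be within the limit of detection.

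Of 18 receptors, adaptors and kinases of the pathway, all tested, 5 were higher and 0 lower in edgeR's test, and the median change was 0.54 on the log2 scale. Of all genes tested, 10.5% were higher. The decoy receptor gene Il1r2, which binds IL-1 without signaling, had 5.32, 5.65 and 8.26 CPM among WT mice and 47.8, 24.8 and 62.4 CPM among sST2-KO mice, with no overlap and a log2 fold change of 2.82 (SE 0.38, adjusted p = 0.0122). The signaling receptor gene Il1r1 had a log2 fold change of 1.09 that did not pass (adjusted p = 0.094). Both IL-18 receptor chains were higher, Il18rap by a log2 fold change of 2.53 (SE 0.20, adjusted p = 0.00596) and Il18r1 by 2.34 (SE 0.28, adjusted p = 0.01). Il18rap varied little within groups, with 5.41, 6.22 and 6.41 CPM in WT mice and 33.5, 32.9 and 37.8 CPM in sST2-KO mice. The shared signaling genes Myd88 and Traf6, an adaptor and a ubiquitin ligase, rose by less than 2-fold, by 0.88 and 0.75 on the log2 scale (adjusted p = 0.0307 and 0.03). Of the 18 genes, 1 passed without WT replicate 3, and 3 passed without WT replicate 2, sST2-KO replicate 2 or sST2-KO replicate 3. Il1r1 and Traf6 are named outside the rule for named genes, after their values were seen.

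Of 26 other inflammasome and pyroptosis genes, 22 were tested and 6 were higher, 0 were lower, and the median change was 1.23 on the log2 scale. The share that was higher among all genes tested was 10.5%. Among the 6, the largest rises were in Mefv, the pyrin sensor gene (log2 fold change 3.46, SE 0.76, adjusted p = 0.0239 in edgeR), and in Pstpip1, a partner of pyrin (2.57, SE 0.40, adjusted p = 0.0136). Mefv had 1.49, 2.36 and 1.36 CPM among WT mice and 7.81, 7.83 and 42.6 CPM among sST2-KO mice. The channel gene Panx1 (2.12, adjusted p = 0.0231) and the DNA sensor gene Aim2 (2.02, adjusted p = 0.0261) followed. Nlrp10 had at most 2 counts in a library and Gsdmc had 0 in all. Without WT replicate 2 only 1 of the 22 passed. Without WT replicate 3 edgeR called 0, with 9 at an unadjusted p under 0.05. The share of all genes at that threshold was not computed. DESeq2 on all libraries called 12. The Naip, Nlrp1 and Gbp genes have near copies whose reads the counting may have split, so their counts are uncertain.

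All 15 genes of a list of known IL-1 and IL-18 responses were higher in edgeR's test, as were 10.5% of all genes tested. Their median log2 fold change was 3.61. Ifng, Csf3, Il6, Ptgs2 and Cxcl2 had fewer than 10 counts in at least 1 WT library. They passed the expression filter with the help of the sST2-KO libraries. With at least 10 counts required in every library, 10 genes of the list were tested and 10 were higher. The share of all genes higher under that filter was not computed, so this count is only a description. The largest rises were in the neutrophil chemokine gene Cxcl2 (log2 fold change 6.11, SE 1.33, adjusted p = 0.0231), the interferon-γ gene Ifng (6.04, SE 0.98, adjusted p = 0.0147), the acute phase gene Saa3 (5.93, SE 1.39, adjusted p = 0.0278) and the granulocyte growth factor gene Csf3 (5.70, SE 0.96, adjusted p = 0.015). Ifng had 0.187, 0.754 and 0.123 CPM among WT mice and 4.95, 28.7 and 41.9 CPM among sST2-KO mice. Cxcl2 had 43.8, 16.6 and 405 CPM among sST2-KO mice, and Saa3 had 1040, 79.4 and 5160 CPM there, so that its second sST2-KO library was only 1.49 times the highest WT library. In 14 of the 15 every sST2-KO library lay above every WT library, as in 21.8% of all genes tested. Lcn2, named after its values were seen, was the exception. These genes also respond to other inflammatory signals, and without WT replicate 3 only 1 of the 15 passed.

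**Figure D4:**
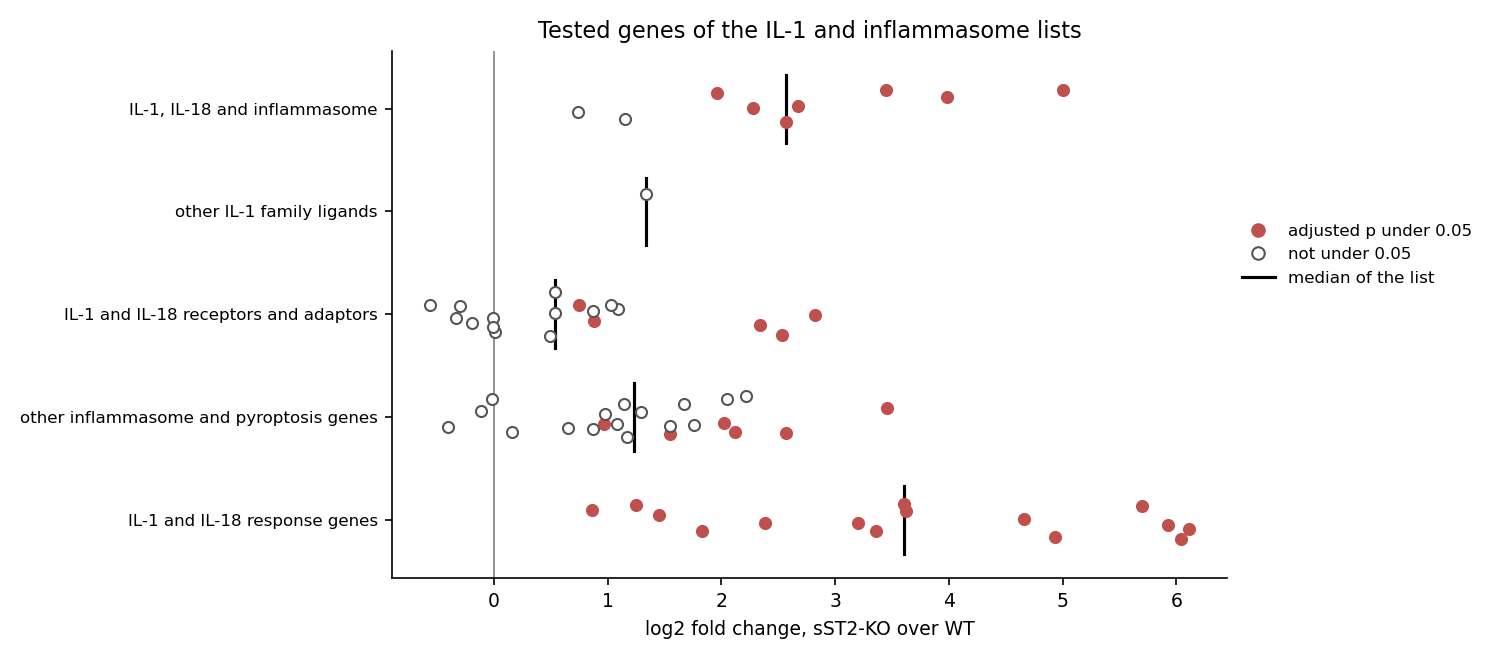
Log2 fold change in sST2-KO over WT mice of each tested gene in the 10-gene set and in 4 lists of related genes, filled red where the adjusted p is under 0.05, with a line at the median of each list. The medians are 2.57, 1.34, 0.54, 1.23 and 3.61 from top to bottom.

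For Il1b, Il1rn and Casp1 the genes with the most similar pattern were sought among 14505 genes, by the root mean square difference of log2 CPM over the 6 libraries after centering each gene. The nearest to Il1b were Clec4e (0.42), a C-type lectin receptor gene, Stfa2l1 (0.61), Dhrs7c (0.63), the formyl peptide receptor gene Fpr2 (0.67) and Mcemp1 (0.68). The nearest to Il1rn were Gm38985 (0.33), LOC100038947 (0.48), Dhrs7c (0.49), Serinc2 (0.50) and Cd300e (0.50). Casp1 had closer neighbors than either, with Ms4a6d at 0.11, LOC100503496 at 0.11, Gm17224 at 0.13, Snx20 at 0.14 and A530040E14Rik at 0.15. Clec4e had 1.77, 2.64 and 1.85 CPM among WT mice and 23.2, 8.31 and 123 CPM among sST2-KO mice, with the sST2-KO libraries in the order of Il1b. Ms4a6d had 44.0, 29.4 and 24.5 CPM among WT mice and 65.8, 101 and 293 CPM among sST2-KO mice, in the order of Casp1. Stfa2l1, Dhrs7c, Gm38985 and Cd300e were under 0.97 CPM, the cutoff of the expression filter, in every WT library. They passed the filter through the sST2-KO libraries, on which their patterns mainly rest. Mcemp1, Serinc2 and LOC100038947 were under it in at least 1 WT library. All 6 libraries are shared by the genes compared, so these distances are descriptions. The parts of immune cells and of muscle RNA in them were not tested.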

How the data were processed

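BAT RNA-seq libraries of 3 WT and 3 sST2-KO mice were used, grouped by their labels. The authors selected poly-A RNA, sequenced 150 bp paired-end reads, aligned them to mm39 with HISAT2 (2.2.1 in the submitters' processing notes, which also list FastQC 0.12.1) and deposited raw htseq-count counts per gene symbol; the annotation and the use of strand are not given in the sources used here. The table holds 0 further columns of values per sample.

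The test was edgeR 4.0.16 in R 4.3.3 (filterByExpr on group, TMM, glmQLFit and glmQLFTest, Benjamini-Hochberg over the 14542 genes tested, common biological coefficient of variation 0.325), and calls were made below an adjusted p of 0.05. The SE is the log2 fold change without its sign over the square root of F. Each of the 9 tested genes of the set exceeded 1 CPM in every WT library (lowest 1.23), so none was kept through the sST2-KO group alone. The authors' methods name DESeq2, which (1.42.0) was an alternative, with total counts or RLE factors as the scaling, a filter of at least 10 counts in every library or none, robust estimation, a block of replicate number, and each library left out. Ratios used log2 (counts + 0.5) or + 1 and an exact two-sided permutation test, and other macrophage sums were tried. With 3 libraries a group, p-values measure only the spread between these samples, which may be technical. The members, the gene lists, the cell type markers and the tests were chosen with earlier results of these data known, so no list's direction is independent evidence. The rule for named genes took all 10 genes, in each pathway list up to 4 called genes of largest change in a direction and those with at most 3 counts in every library, and the 5 genes most like Il1b, Il1rn and Casp1. Il36 genes and Gsdme were matched by older symbols, and Trac was not found by symbol. Coordinates, exon lengths and promoters are from GRCm39, the authors' build, with GENCODE vM39. No window overlapped exons of its own gene in the 3 shown. Of the windows not shown, that of Il18bp lay wholly in exons of its own gene (250 bases). Those of Il18, Casp4 and Gsdmd held 5, 15 and 19 such bases. Chi-square values per degree of freedom between libraries of a group were 36.6 to 104, and so none repeated another. Tested on simulated data of these libraries (14313 genes), edgeR recovered 19.4% of genes changed by a log2 fold of 1 and 79.8% of those changed by 2. The simulation changed few genes, gave all genes the trended dispersion and set no library apart, so recovery in these data may differ. Plots were made in Python 3.11.15 with matplotlib 3.10.9.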

Additional observations from a re-analysis of the deposited data

How the results depend on the processing

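No gene of the set changed direction under any of the alternatives, and 0 were lower in each of them. The number called higher, 7, was 9 of 10 with DESeq2 and with no filter, 8 with total counts, 7 with RLE factors, with at least 10 counts in every library and with robust estimation, and 0 to 9 with a library left out, and all 7 called genes were also called with DESeq2; the counts past 2-fold were the same numbers. Total counts moved the median log2 fold change of all genes from 0.034 to 0.293, and the share of all genes called higher from 10.5% to 15.0%. That share was not computed with no filter, RLE factors, at least 10 counts in every library or robust estimation. The labels do not say whether same-numbered mice were paired. The deviations of same-numbered libraries correlated at -0.06, 0.21 and -0.31, and with 3 libraries a group these values cannot decide it. With the replicate block edgeR called 0 genes of the set, 0 receptors and adaptors and 0 other inflammasome genes as higher. It also called 0 response genes and 0 of all 14542 genes as higher. In that fit 7 genes of the set and 7 receptors and adaptors were higher at an unadjusted p under 0.05. So were 11 other inflammasome genes and 14 response genes. The share of all genes at that threshold was not computed, so these counts are only a description. Only 2 degrees of freedom remained in that fit to estimate the error, so few calls could be made with it.

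Other IL-1 family ligands called higher were 1 with DESeq2 and with no filter against 0, and 0 to 1 with a library left out. Other inflammasome genes were 12 with DESeq2 and 11 with total counts against 6, and 0 to 6 with a library left out. Receptors and adaptors were 1 to 4 and response genes 1 to 14 with a library left out. The difference in the Il1rn to Il1b log2 ratio lay between -1.21 and 0.03 in the leave-one-out fits, at 0.03 without WT replicate 2. The difference for Gsdmd to the macrophage markers ran from -0.48 to 0.10, was 0.10 without sST2-KO replicate 3 and was 0.14 without Lyz2, Cd68 and Cd14 in the sum; the cause was not tested. The Il18bp to Il18 difference stayed between -1.88 and -1.03. Low counts limit Il1a, and 3 mice a group limit all calls.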
